A study of Mus musculus with 6 samples.

Results

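The integrin beta subunits and the discoidin collagen receptors were followed in cultured mouse lung endothelial cells (LECs) that lack the triglyceride lipase ATGL. The 10 genes named for this family were *Ddr1*, *Ddr2* and *Itgb1* to *Itgb8*. They were chosen by gene name after the near loss of *Ddr2* RNA in *Atgl* ECKO LECs had been seen. Of these, 9 were found among the 20409 gene symbols of the expression table, 7 beta subunits and both discoidin receptors, and *Itgb8* was not analysed here. The values come from total RNA-Seq of 3 *Atgl* ECKO and 3 control libraries. *Atgl* ECKO LECs came from Atgl f/f mice that also carry Cre recombinase under the *Cdh5* (VE-cadherin) promoter, and control LECs from Atgl f/f littermates. Cells of both genotypes were selected with antibody to CD31, immortalized with the middle T antigen, grown on gelatin in medium with serum and left untreated, the methods name male mice for the study, and the age at which LECs were isolated is not stated. Whether the 3 libraries of a genotype are separate isolates or repeats of 1 line is not stated, so the p-values here cover the spread between libraries, which may be technical.

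Integrins are adhesion receptors built from an alpha and a beta chain. The beta chain carries the short cytoplasmic tail to which talin and kindlin bind when the receptor is switched on, and the choice of beta chain narrows the ligands: beta 1 serves collagen, laminin and fibronectin receptors, beta 3 and beta 5 serve vitronectin receptors with alpha v, beta 4 serves the laminin receptor of hemidesmosomes with alpha 6, and beta 2 and beta 7 serve leukocytes. The discoidin receptors DDR1 and DDR2 are receptor tyrosine kinases that are activated by triple-helical collagen, DDR1 mostly in epithelia and DDR2 mostly in mesenchymal cells, where fibrillar collagen is its main ligand.

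The libraries were deep and close to each other within a genotype. By the step between the lowest values, 1 CPM (a count scaled to the library total) rested on 55.6 to 69.0 reads, and these are estimated reads, since the counting method splits reads among genes. Libraries of 1 genotype correlated at 0.998 to 0.999 over the 12837 tested genes and libraries of different genotypes at 0.963 to 0.964 (Pearson's r over genes, which do not count as replicates). *Pnpla2*, which encodes ATGL, had 9.97, 9.11 and 9.13 CPM in *Atgl* ECKO libraries against 27.6, 26.3 and 30.1 CPM in control libraries (p = 0.1 by an exact, two-sided permutation test, which can go no lower with 3 against 3), and whole-gene CPM do not single out the deleted part. The endothelial markers *Cdh5* and *Pecam1*, named outside the naming rule, had 2099.7 and 1127 CPM in *Atgl* ECKO and 1985 and 923 CPM in control LECs. All 14 endothelial markers listed were tested, with 5 higher, 5 lower and 4 not passing. The largest changes ran in opposite directions, *Cldn5* at 111 CPM in *Atgl* ECKO and 29.02 CPM in control LECs (log2 fold change 1.90) and *Vwf* at 57.7 CPM in *Atgl* ECKO and 148 CPM in control LECs (-1.35), so a sum over the list hides them. The summed level of the 14 was 6200 to 6611 CPM in *Atgl* ECKO and 6204 to 6439 CPM in control libraries. Transcripts of the Y chromosome separated the genotypes as well. *Ddx3y*, for instance, had 0.924 to 1.23 CPM in *Atgl* ECKO and 94.0 to 98.1 CPM in control libraries, while *Xist* stayed at or below 0.0540 CPM in all 6, so the effect of the genotype and other differences between the cell lines cannot be told apart.

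Promoter sequence from RefSeq is printed for the member that lost nearly all of its RNA, *Ddr2*, and for the member with the highest RNA level, *Itgb1*. Each window runs from 250 bases before to 50 bases after a RefSeq start on build GRCm38.p6 and is written 5′ to 3′ on the strand of the gene, with CG dinucleotides in capitals. The table of windows held 7 of the 10 genes. The *Ddr2* window lies at chr1:170088895-170089194 on the minus strand, and the *Itgb1* window at chr8:128685404-128685703 on the plus strand.
Ddr2: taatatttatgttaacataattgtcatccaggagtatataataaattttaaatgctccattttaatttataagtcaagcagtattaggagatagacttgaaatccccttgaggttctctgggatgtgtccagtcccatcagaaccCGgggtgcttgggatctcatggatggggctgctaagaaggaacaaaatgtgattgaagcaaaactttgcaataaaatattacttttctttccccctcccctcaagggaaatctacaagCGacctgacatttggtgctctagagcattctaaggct
Itgb1: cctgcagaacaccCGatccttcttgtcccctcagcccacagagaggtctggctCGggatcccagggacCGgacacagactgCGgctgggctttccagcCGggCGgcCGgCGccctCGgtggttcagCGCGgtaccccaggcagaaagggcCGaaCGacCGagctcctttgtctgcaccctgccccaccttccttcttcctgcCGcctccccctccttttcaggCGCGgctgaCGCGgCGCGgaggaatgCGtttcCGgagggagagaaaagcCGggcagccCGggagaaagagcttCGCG
CG reads the same on both strands. The *Ddr2* window holds 2 CG, a number that 85.9% of 32851 windows of this length reach or exceed, and the *Itgb1* window holds 27, which 15.5% reach or exceed. TATAAA, searched on both strands and at any position, was found in the *Ddr2* window and in 13.6% of all windows, and not in the *Itgb1* window. In the *Ddr2* window the printed strand reads TTTATA, before the RefSeq start, so TATAAA itself lies on the opposite strand. The GC box GGGCGG, whose letters hold a CG, was found on either strand in the *Itgb1* window and in 35.7% of all windows, and not in the *Ddr2* window. These matches describe the letters of the windows and were not set against any measure of transcription.

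*Ddr2*, the collagen receptor of mesenchymal cells, was close to absent in *Atgl* ECKO LECs. It had 0.554, 0.826 and 0.551 CPM in *Atgl* ECKO replicates 1, 2 and 3, against 71.7, 71.9 and 68.7 CPM in control replicates 1, 2 and 3. The *Atgl* ECKO values rest on 35, 51 and 36 estimated reads and the control values on 4954, 4001 and 4553, so the RNA was still above the limit of 3 reads in every library. The genotypes do not overlap, and the mean in *Atgl* ECKO LECs was 0.909% of that in control LECs. The log2 fold change was -5.45 on the scale of log2(CPM + 1). This difference prompted the choice of the family, so it is given as a description with no test. The ratio of mean CPM, without the added 1 CPM, gives -6.78 on the log2 scale. In bulk RNA, fewer cells with the transcript and less transcript in each cell cannot be told apart.

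*Ddr1*, the other discoidin receptor and the epithelial one, was low in both genotypes. It had 1.11, 1.57 and 1.35 CPM in *Atgl* ECKO libraries against 0.999, 1.04 and 1.52 CPM in control libraries. The ranges overlap, and the difference was 0.10 on the log2 scale (95% interval -0.12 to 0.32; limma, adjusted p = 0.400), so a difference between the genotypes was not detectable. The value depends on single libraries: it was 0.21 without control replicate 3 (limma, adjusted p = 0.0849) and 0.03 without *Atgl* ECKO replicate 2, with the other omissions in between. Per kilobase of exon, *Ddr2* was at 0.0749 ± 0.0184 CPM and *Ddr1* at 0.328 ± 0.0566 CPM in *Atgl* ECKO LECs (SD, n = 3), against 8.24 ± 0.211 CPM for *Ddr2* and 0.290 ± 0.0711 CPM for *Ddr1* in control LECs (SD, n = 3). The more abundant discoidin receptor transcript was thus *Ddr1* in every *Atgl* ECKO library and *Ddr2* in every control library.

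**Figure D1:**
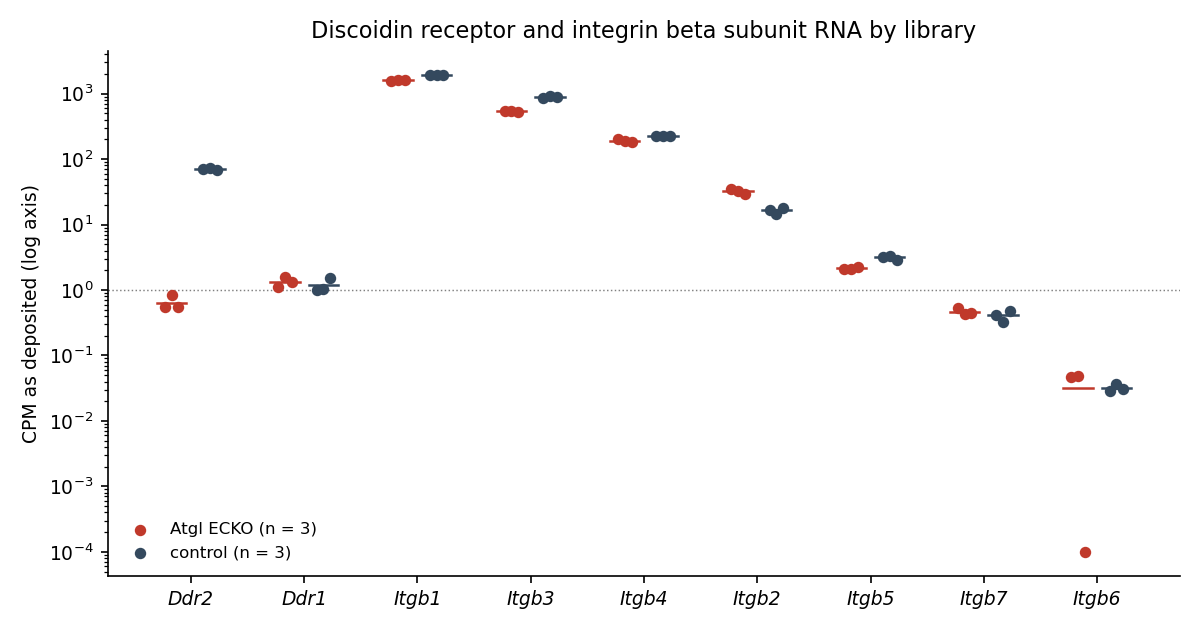
CPM of the 9 analysed members on a log axis, with a point for each library, *Atgl* ECKO left of control, and a bar at the group mean. *Ddr2* sits at 0.551 to 0.826 CPM in *Atgl* ECKO libraries and at 68.7 to 71.9 CPM in control libraries, the widest gap of the 9, the dotted line marks 1 CPM, and the point at 0.0001 is *Itgb6* listed at the offset of the table.

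Among the beta subunits, *Itgb1*, *Itgb3*, *Itgb4* and *Itgb5* were lower and *Itgb2* was higher in *Atgl* ECKO LECs. Leaving *Ddr2* aside, 6 members averaged 1 CPM or more, and 5 of them passed an adjusted p under 0.05 in the fit over all genes, 1 higher and 4 lower. Of all 12837 genes tested, 70.5% passed, 34.2% as higher and 36.2% as lower. The libraries of the groups do not overlap for the same 5 members, and for 73.1% of all tested genes. The family was chosen on this same contrast, so nothing is read from the count.

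*Itgb1*, the partner of the largest group of alpha chains, was the most abundant member. It had 1565, 1631 and 1591 CPM in *Atgl* ECKO libraries against 1956, 1944 and 1920 CPM in control libraries. The groups are fully separate, and *Atgl* ECKO LECs kept 82.3% of the control level. The log2 fold change of -0.28 (SE 0.03; limma, adjusted p = 1.43e-06) is of a size that 37.8% of all tested genes reached or exceeded in either direction.

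*Itgb3*, the beta chain of the vitronectin receptor alpha v beta 3, a receptor known from angiogenic endothelium, fell more than the other subunits, except that *Itgb5* came at -0.65 and *Itgb3* at -0.64 on the log2 scale with chromosome medians removed. It had 541, 536 and 528 CPM in *Atgl* ECKO libraries against 874, 906 and 893 CPM in control libraries. The groups lie far apart relative to their spread (SD 6.55 CPM in *Atgl* ECKO and 16.3 CPM in control libraries), and *Atgl* ECKO LECs kept 60.1% of the control level. On the log2 scale *Itgb3* changed by -0.73 (SE 0.03; limma, adjusted p = 4.66e-12), and 8.52% of all tested genes changed by as much or more.

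*Itgb4*, which joins alpha 6 in the laminin receptor that anchors intermediate filaments, was modestly lower. It had 200.5, 191 and 185 CPM in *Atgl* ECKO libraries against 222, 224 and 229 CPM in control libraries. The groups do not overlap, and the difference was -0.22 on the log2 scale (SE 0.03; limma, adjusted p = 1.63e-05), or -0.13 with the median of its chromosome removed. Changes of this size or larger were seen in 47.4% of all tested genes.

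*Itgb5*, the beta chain of the other vitronectin receptor of alpha v, was present at low level. It had 2.13, 2.10 and 2.22 CPM in *Atgl* ECKO libraries against 3.20, 3.33 and 2.89 CPM in control libraries, which rest on 130 to 145 and on 185 to 221 estimated reads. All *Atgl* ECKO values lie below all control values, and the difference was -0.39 on the log2 scale (SE 0.07; limma, adjusted p = 0.000170). The added 1 CPM weighs on a gene this low, and the ratio of mean CPM gives -0.55 on the log2 scale, while removal of the median of its chromosome gives -0.65.

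*Itgb2*, the beta chain shared by the leukocyte integrins, was the member that rose. It had 35.05, 33.1 and 29.5 CPM in *Atgl* ECKO libraries against 16.9, 14.5 and 18.0 CPM in control libraries. The lowest *Atgl* ECKO library was above the highest control library, and the difference was 0.94 on the log2 scale (SE 0.07; limma, adjusted p = 7.31e-09), which 5.50% of all tested genes reached or exceeded in either direction. Of 11 leukocyte markers listed, 5 were in the table. Of the 3 tested, 2 were higher, *Cd68* (log2 fold change 1.77) and *Coro1a* (1.89), beside 34.2% of all tested genes. *Laptm5* did not pass (0.09, limma, adjusted p = 0.356). The summed level of the 5 markers was 75.8 to 86.9 CPM in *Atgl* ECKO and 22.5 to 25.7 CPM in control libraries. Most of it came from *Cd68* (65.4 and 18.4 CPM in *Atgl* ECKO and control LECs) and *Coro1a* (11.9 and 2.48 CPM). The sum thus describes these genes rather than the list, and *Ptprc*, *Spi1*, *Tyrobp* and *Adgre1* were among the markers without values. *Lyz2*, at 0.449 and 0.351 CPM, and *Fcer1g*, at 0.0745 and 0.0451 CPM in *Atgl* ECKO and control LECs, stayed under 1 CPM in every library. The leukocyte partner chains of *Itgb2* were low, *Itgax* at 2.33 and 1.69 CPM, *Itgam* at 0.173 and 0.0747 CPM and *Itgal* at 0.105 and 0.0308 CPM in *Atgl* ECKO and control LECs. The part of leukocytes in the higher *Itgb2* was not tested.

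The remaining beta subunits were near or under the limit of the data. *Itgb7*, the beta chain of gut-homing lymphocytes, had 0.523, 0.438 and 0.444 CPM in *Atgl* ECKO libraries against 0.420, 0.324 and 0.483 CPM in control libraries, from 18 to 33 estimated reads, and the groups overlap. *Itgb6*, an epithelial partner of alpha v that activates latent TGF-β, rested on at most 3 estimated reads in every library and was at 0 reads in *Atgl* ECKO replicate 3, so no fold change is given. Both were below the mean of 1 CPM required for the test.

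**Figure D2:**
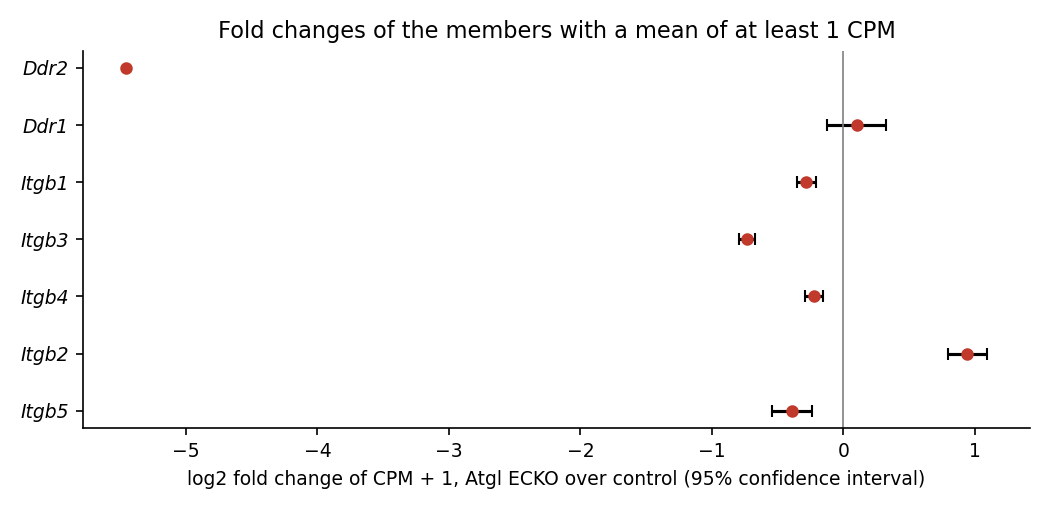
Log2 fold change of CPM + 1, *Atgl* ECKO over control, for the 7 members with a mean of at least 1 CPM, with a 95% confidence interval for all but *Ddr2*, which is given as a description. *Ddr2* lies at -5.45, *Itgb2* at 0.94 is the subunit above 0, and the interval of *Ddr1* spans 0.

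Per kilobase of exon, the order of the beta subunits was the same in both genotypes: *Itgb1*, *Itgb3*, *Itgb4*, *Itgb2*, *Itgb5*, *Itgb7* and *Itgb6*, from high to low. *Itgb1* stood at 418 ± 8.66 CPM per kilobase in *Atgl* ECKO and 509 ± 4.81 CPM per kilobase in control LECs (SD, n = 3 each). *Itgb3* stood at 92.5 ± 1.13 CPM per kilobase in *Atgl* ECKO and 154 ± 2.82 CPM per kilobase in control LECs (SD, n = 3 each). What changed place was *Ddr2*, which was 8th of the 9 members in *Atgl* ECKO LECs, below *Itgb7*, and 4th in control LECs, between *Itgb4* and *Itgb2*. No member's libraries overlapped with those of its neighbour in this order in either genotype. As a share of the summed level of the 7 beta subunits per kilobase, *Itgb1* made up 75.7% ± 0.688 in *Atgl* ECKO and 72.2% ± 0.447 in control LECs (SD, n = 3 each). *Itgb3* made up 16.7% ± 0.311 in *Atgl* ECKO and 21.9% ± 0.393 in control LECs (SD, n = 3 each). The transcript mix thus held a smaller part of *Itgb3* in *Atgl* ECKO LECs, and *Itgb1* and *Itgb3* together dominated in both.

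The alpha chains, which pair with these beta chains and set much of the ligand specificity, moved in both directions. Of 18 alpha subunits, 16 were in the table and 13 were tested. Among the 13, 5 were higher, 6 lower and 2 did not pass, beside 34.2% higher and 36.2% lower of all tested genes. The median log2 fold change was -0.08 against -0.01 for all tested genes. Among the partners of *Itgb1*, the collagen receptor chain *Itga2* (34.4 ± 1.28 CPM in *Atgl* ECKO and 111 ± 4.47 CPM in control LECs, SD, n = 3 each) fell with a log2 fold change of -1.66. Another collagen receptor chain, *Itga1* (200 ± 5.46 and 139 ± 5.89 CPM in *Atgl* ECKO and control LECs), rose by 0.52 on the log2 scale. Among laminin receptor chains, the most abundant, *Itga6* (773 and 823 CPM in *Atgl* ECKO and control LECs), was lower by a small margin (-0.09; limma, adjusted p = 0.0187), and the others split, with *Itga3* (703 ± 7.64 and 471 ± 17.1 CPM in *Atgl* ECKO and control LECs) at 0.58 and *Itga7* (33.6 and 66.0 CPM) at -0.95. *Itga9*, a receptor chain for tenascin C and fibronectin, fell to 0.764 ± 0.161 CPM in *Atgl* ECKO LECs, against 83.0 ± 1.13 CPM in control LECs, a log2 fold change of -5.58 that is close to that of *Ddr2*. *Itga9* and *Itga8*, counted among the 6 lower, averaged 1 CPM or more in control LECs alone. The filter thus fixed their direction, and nothing is read from it. *Itga5*, the fibronectin receptor chain, changed by -0.08 on the log2 scale (limma, adjusted p = 0.0518).

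Of the 24 integrin pairs known in mouse, 21 had both genes in the table. In *Atgl* ECKO LECs 14 pairs, and in control LECs 16 pairs, had a mean of at least 1 CPM for both chains. The 14 were among the 16, and the pairs met in control LECs alone were *Itgb1* with *Itga9* and *Itgb1* with *Itga8* (0.958 CPM in *Atgl* ECKO and 3.06 CPM in control LECs). Both of these depend on the limit, since *Itga9* had a mean of 0.764 CPM in *Atgl* ECKO and 83.0 CPM in control LECs. At a mean of 0.5 CPM both pairs passed in each genotype, and each had 16 pairs. A pair that passes can thus hold a chain far below its control level. At 5 CPM there were 10 pairs in *Atgl* ECKO and 11 in control LECs. Pairs were counted on RNA, and protein at the cell surface was not measured in these libraries.

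**Figure D3:**
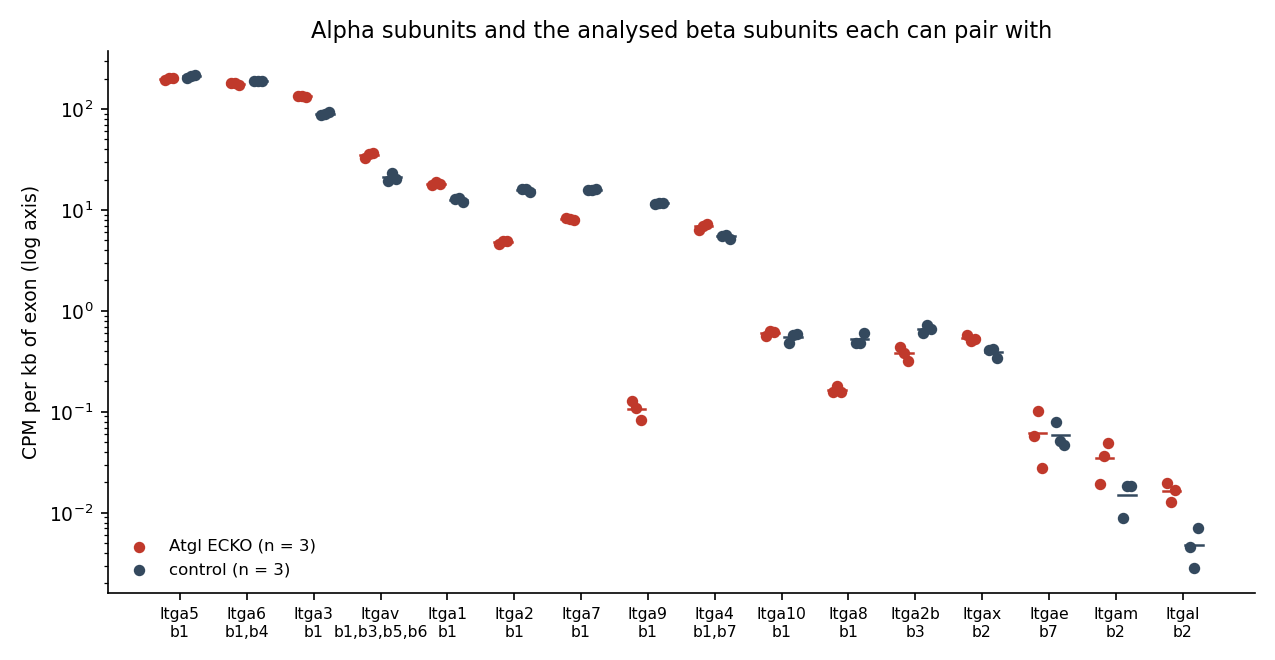
CPM per kilobase of exon on a log axis for the 16 alpha subunits in the table, with a point for each library, *Atgl* ECKO left of control, and a bar at the group mean. The analysed beta subunits that each alpha chain can pair with are written below its name as b and a number, and *Itga9* shows the widest gap.

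*Itgav*, which pairs with *Itgb1*, *Itgb3*, *Itgb5* and *Itgb6*, was higher while *Itgb1*, *Itgb3* and *Itgb5* were lower. It had 246 ± 14.0 CPM in *Atgl* ECKO LECs and 147.99 ± 12.96 CPM in control LECs (SD, n = 3 each), a log2 fold change of 0.73 (limma, adjusted p = 4.67e-09), beside -0.73 for *Itgb3*. Within each library and per kilobase, *Itgb3* was 2.87, 2.59 and 2.51 times the level of *Itgav* in *Atgl* ECKO replicates 1, 2 and 3, against 7.75, 6.80 and 7.56 times in control replicates 1, 2 and 3. The groups do not overlap, so the surplus of beta 3 over alpha v transcript was smaller in every *Atgl* ECKO library. This ratio is taken within a library, and scaling between libraries does not enter it. The ratio of *Itgb1* to the sum of its 11 alpha partners was 0.716 ± 0.00833 in *Atgl* ECKO and 0.889 ± 0.0201 in control LECs (SD, n = 3 each). The sum of these partners per kilobase was 584 ± 6.97 CPM in *Atgl* ECKO and 572 ± 8.02 CPM in control LECs. *Itgb4* to *Itga6* gave 0.170 ± 0.00385 in *Atgl* ECKO and 0.187 ± 0.00479 in control LECs, the smallest shift of these pairs.

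**Figure D4:**
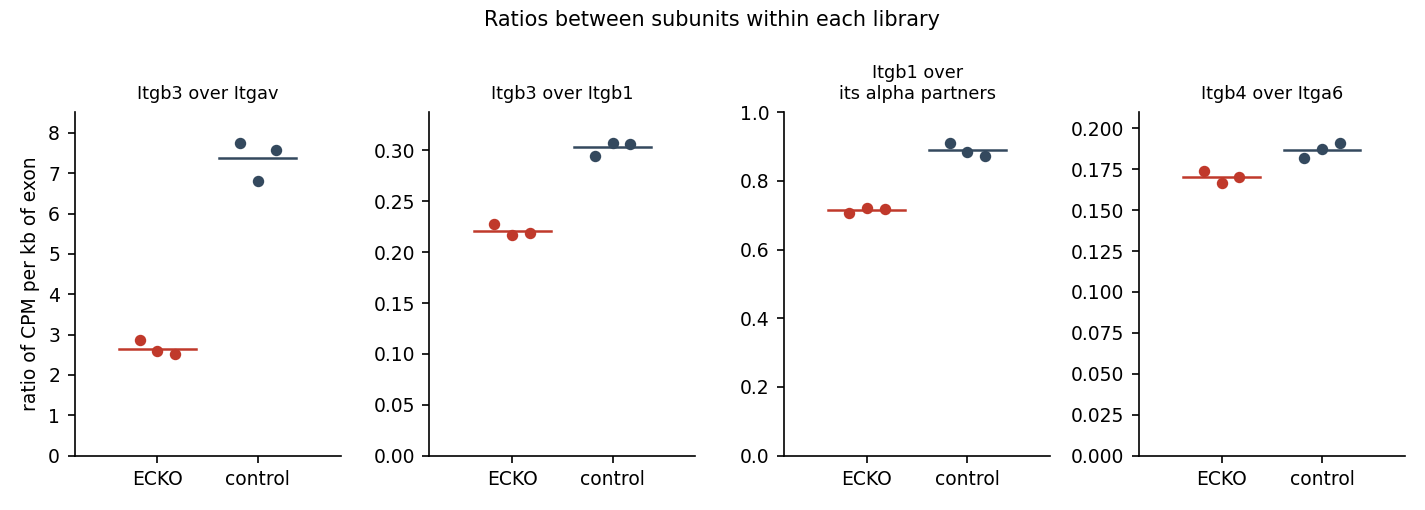
Ratios of CPM per kilobase of exon within each library, with a point for each library, *Atgl* ECKO left of control, a bar at the group mean and axes from 0. *Itgb3* over *Itgav* lies at 2.51 to 2.87 in *Atgl* ECKO and at 6.80 to 7.75 in control libraries.

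The collagens, the ligands of the discoidin receptors and of *Itga1* and *Itga2* with *Itgb1*, included transcripts with large falls. Of 21 collagen genes, 8 were tested. Among the 8, 1 was higher, 5 lower and 2 did not pass, beside 34.2% higher and 36.2% lower of all tested genes. The median log2 fold change was -1.22 against -0.01 for all tested genes. No gene lies near this median, which falls in a gap between -2.21 and -0.23. *Col5a3* reached a mean of 1 CPM through the control libraries alone, so nothing is read from the median. Members of the fibril-forming type V fell in *Atgl* ECKO LECs, *Col5a1* to 3.86 ± 0.251 CPM against 89.2 ± 4.28 CPM in control LECs (log2 fold change -4.21), *Col5a2* to 8.34 ± 0.196 against 47.6 ± 0.770 CPM (-2.38) and *Col5a3* to 0.443 ± 0.128 against 7.72 ± 0.313 CPM (-2.60). *Col8a1*, a short-chain collagen of the vascular wall, fell to 151 ± 8.55 CPM in *Atgl* ECKO LECs, against 702 ± 28.9 CPM in control LECs (-2.21). The basement membrane chains *Col4a1* (3486 and 3557 CPM in *Atgl* ECKO and control LECs) and *Col4a2* (1750.4 and 1685 CPM) did not pass the test. *Col1a1*, of the main fibrillar collagen that activates DDR2, was at 0.359 CPM in *Atgl* ECKO and 1.196 CPM in control LECs. *Col3a1* was at 0.0366 CPM in *Atgl* ECKO and 0.454 CPM in control LECs, so type I and III transcripts were scarce in both. At a filter of 5 CPM, 5 collagen genes were tested and 3 were called, all lower. With no filter, all 21 entered the test, of which 3 were higher and 10 lower. Over all genes, 3687 of 10527 were higher and 4028 lower at 5 CPM, and 5208 of 20409 were higher and 5189 lower with no filter.

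Fibroblast, smooth muscle and pericyte markers are given beside *Ddr2*, a receptor of mesenchymal cells. Of 15 markers, 10 were in the table and 4 were tested, with 2 higher, *Tagln* (0.77) and *Cnn1* (0.73), 1 lower, *Acta2* (-0.53), and *Myh11* not passing. The summed level of the 10 was 364 to 435 CPM in *Atgl* ECKO and 311 to 354 CPM in control libraries. Most of this sum came from *Tagln* (271 and 159 CPM in *Atgl* ECKO and control LECs) and *Acta2* (116 and 167 CPM). These moved in opposite directions, so the sum describes them rather than the list. The other 6 were too low for the test. Of these, *Col1a1*, *Col3a1* and *Col1a2* (0.126 and 0.243 CPM in *Atgl* ECKO and control LECs) were lower in every *Atgl* ECKO library than in any control library, the direction of *Ddr2*. *Pdgfrb*, at 0.734 CPM in *Atgl* ECKO and 0.226 CPM in control LECs, lay the other way, and the ranges of *Dcn* (0.0425 and 0.0475 CPM) and *Pdgfra* (0.217 and 0.276 CPM) overlap. With no filter, 7 of the 10 were called, 3 higher and 4 lower, where 5208 of all 20409 genes were higher and 5189 lower. All of the 6 but *Col1a1* stayed under 1 CPM in every library. The part of mesenchymal cells in the *Ddr2* values was not tested.

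Receptors for collagen outside the family also differed. Of 8 such genes, 5 were tested, 2 higher and 2 lower, beside 34.2% higher and 36.2% lower of all tested genes. *Itga1* and *Itga2* were among the 5, as given above. *Mrc2*, the endocytic receptor that takes up collagen for degradation, fell to 0.289 ± 0.00359 CPM in *Atgl* ECKO LECs, against 4.75 ± 0.0980 CPM in control LECs (log2 fold change -2.16). *Mrc2* averaged 1 CPM or more in control LECs alone, so the filter fixed its direction and nothing is read from it. *Adgrg1*, an adhesion G protein-coupled receptor that binds type III collagen, rose by 0.13 on the log2 scale.

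Of 17 genes of discoidin receptor signaling, shedding and collagen handling, 15 were tested. Among the 15, 4 were higher, 7 lower and 4 did not pass, beside 34.2% higher and 36.2% lower of all tested genes. The median was -0.12 against -0.01 for all tested genes. *Pard3*, a polarity protein that works with DDR1 at cell contacts, rose by 1.26 on the log2 scale. The adaptor *Shc1*, which docks on activated DDR2, fell by 0.54, and *Adam10*, the protease that sheds DDR1, fell by 0.70 on the log2 scale. *Lox* and *Loxl2*, enzymes that cross-link collagen, were lower as well. *Lox* was at 0.0159, 0.0163 and 0.138 CPM in *Atgl* ECKO replicates 1, 2 and 3 (mean 0.0567 ± 0.0702), against 3.81 ± 0.417 CPM in control LECs. *Atgl* ECKO replicates 1 and 2 lie below the limit of 3 reads. *Lox* averaged 1 CPM or more in control LECs alone, so the filter fixed its direction and nothing is read from it. *Loxl2* fell to 181 ± 5.50 CPM in *Atgl* ECKO LECs, against 308 ± 4.45 CPM in control LECs. The kinase *Src*, which phosphorylates DDR2, changed by 0.05 on the log2 scale (limma, adjusted p = 0.163).

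**Figure D5:**
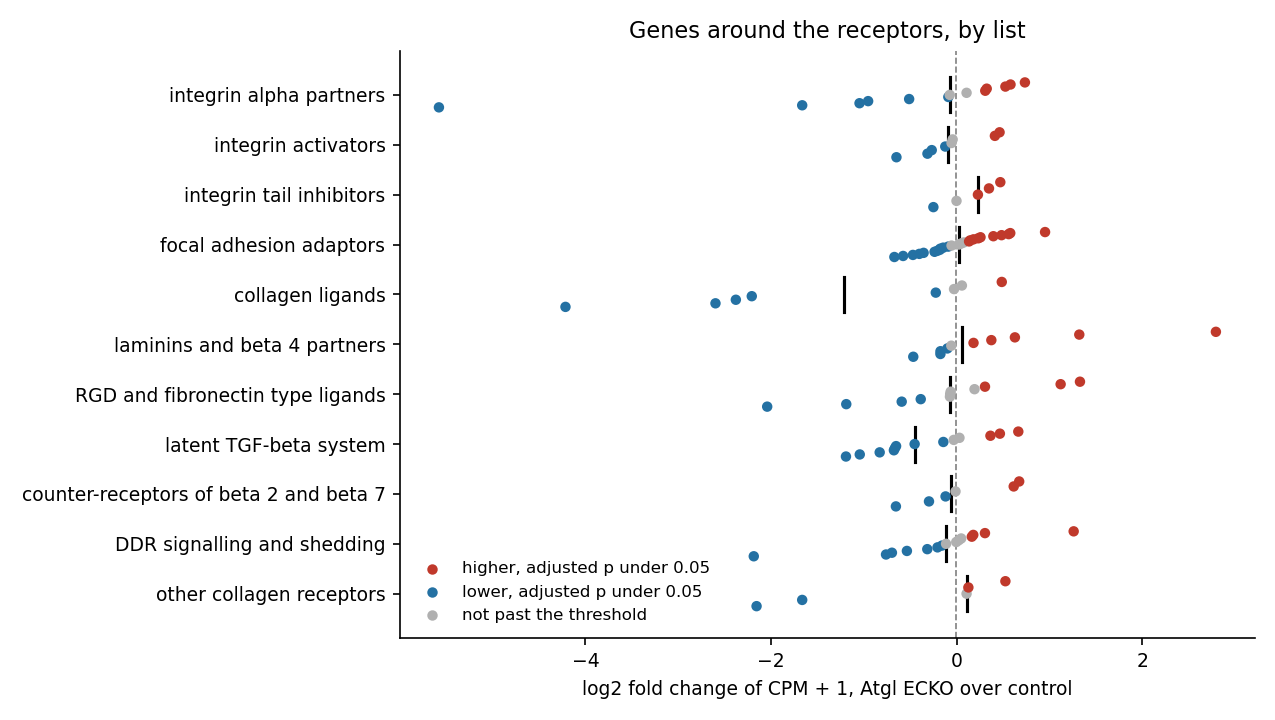
Log2 fold change of CPM + 1, *Atgl* ECKO over control, for each tested gene of the lists around the receptors, with a black bar at the median of a list and a dashed line at the median of all tested genes. The collagen ligands have the lowest median of these lists, -1.22, from 8 genes, and it falls in a gap between -2.21 and -0.23.

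Genes that act on beta chain tails were mixed. Of 8 tested activators, 2 were higher and 4 lower (median -0.09), beside 34.2% higher and 36.2% lower of all tested genes (median -0.01). The talins, which bind the beta tail and switch the receptor on, were lower, *Tln1* by a log2 fold change of -0.27 and the scarce *Tln2* by -0.65, as was the small GTPase *Rap1a* (-0.32). *Tln2* averaged 1 CPM or more in control LECs alone, so the filter fixed its direction and nothing is read from it. The kindlins, which bind next to talin, were higher, *Fermt2* at 0.46 and *Fermt3*, the form of blood cells, at 0.41. Of 5 tested inhibitors of this step, 3 were higher and 1 lower (median 0.23), *Dok1* at 0.47, *Itgb1bp1*, which encodes ICAP1, at 0.35, *Sharpin* at 0.23 and the actin cross-linker gene *Flna* at -0.25.
Of 27 adaptors of focal adhesions, 25 were tested. Among the 25, 10 were higher, 11 lower and 4 did not pass, beside 34.2% higher and 36.2% lower of all tested genes. The median was 0.02 against -0.01 for all tested genes. The vinculin gene *Vcl* rose to 989 ± 11.4 CPM in *Atgl* ECKO LECs, against 511 ± 5.66 CPM in control LECs, and *Actn1* and *Tns3* rose by 0.56 and 0.48 on the log2 scale. The zyxin gene *Zyx* (-0.67) and *Tgfb1i1* (-0.58), which encodes HIC-5, were among the lower members.

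Ligands of *Itgb4* and *Itgb1* in basement membrane were tested with the proteins that link beta 4 to filaments. Of 15 such genes, 10 were tested. Among the 10, 5 were higher, 4 lower and 1 did not pass, beside 34.2% higher and 36.2% lower of all tested genes. The median was 0.06 against -0.01 for all tested genes. *Lama1* rose to 8.98 ± 0.900 CPM in *Atgl* ECKO LECs, against 0.439 ± 0.0893 CPM in control LECs (log2 fold change 2.79), and the endothelial laminin chain gene *Lama4* (0.63) was higher too. *Lama1* averaged 1 CPM or more in *Atgl* ECKO LECs alone, so the filter fixed its direction and nothing is read from it. The linkers of beta 4 moved apart, with the plectin gene *Plec* at 0.37 and *Dst* at -0.47. Beside *Itgb4*, which is also an epithelial gene, 7 of 13 lung epithelial markers were in the table. The 3 tested were higher, *Krt18* (36.6 CPM in *Atgl* ECKO and 15.4 CPM in control LECs), *Krt8* (log2 fold change 1.04) and *Ager* (0.30). The summed level of the 7 was 42.3 to 44.7 CPM in *Atgl* ECKO and 18.0 to 19.0 CPM in control libraries. Most of this sum came from *Krt18*, so it describes that gene rather than the list. *Epcam*, *Cdh1*, *Sftpb* and *Foxj1* stayed under 1 CPM in every library, and the part of epithelial cells in these values was not tested. Of 4 mesothelial markers, 2 were in the table and none was tested, and of 5 lymphatic markers 2 were tested, *Flt4* lower (-0.51) and *Lyve1* not passing.

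Each list that follows stands beside all tested genes, of which 34.2% were higher and 36.2% lower, with a median of -0.01. Nothing is read from the counts of these lists. Ligands of the alpha v and fibronectin receptors gave 3 higher, 4 lower and 4 that did not pass among 11 tested, with a median of -0.07. *Tnc*, which encodes tenascin C, rose by 1.12 and *Edil3*, a ligand of alpha v beta 3, by 1.33, whereas *Fbn1* (-2.04), *Npnt* (-1.19) and *Mfge8* (-0.39), another ligand of alpha v beta 3, were lower. *Fbn1* averaged 1 CPM or more in control LECs alone, so the filter fixed its direction and nothing is read from it. *Fn1*, named outside the naming rule because its product is the ligand of alpha 5 beta 1, was at 1897 ± 149 CPM in *Atgl* ECKO and 2861 ± 228 CPM in control LECs (log2 fold change -0.59). Genes of latent TGF-β, which alpha v integrins release, gave 8 lower and 3 higher among 13 tested, with a median of -0.45. *Lrrc32*, which holds latent TGF-β at the cell surface, fell by 0.83 on the log2 scale, *Tgfb3* by 1.19, *Tgfbr2* by 0.68, *Ltbp1* by 1.04 and *Ltbp4* by 0.65. Among endothelial counter-receptors of beta 2 and beta 7 integrins, 2 of 6 tested were higher and 3 lower, with a median of -0.07. *Vcam1* (0.61) and *Jam3* (0.67) were higher, *Jam2* (-0.66), *F11r* (-0.30) and *Icam2* (-0.12) lower, and *Icam1* did not pass (-0.01).

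The genes whose pattern over the 6 libraries was most like that of *Ddr2* were sought among 8598 genes that averaged 10 CPM or more over the 6 libraries, provisional gene names left out, by the root mean square difference between log2(CPM + 1) profiles, each centred on its own mean. *Itga9* was closest, at a difference of 0.125, followed by *Ddx3y* of the Y chromosome at 0.150. *Casp1*, the inflammasome caspase, came next at 0.325, then *Eif2s3y* of the Y chromosome at 0.487 and *Aim2*, an inflammasome sensor, at 0.502. The means of the 5 were 0.294 to 1.11 CPM in *Atgl* ECKO LECs and 29.3 to 95.8 CPM in control LECs. This contrast was set by the search for the *Ddr2* pattern, and the 5 reached 10 CPM through the control libraries alone. It is thus no result about these genes. The likeness rests on 2 groups of 3 libraries and is a description.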

How the data were processed

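Values were taken from a table that the authors deposited in CPM (counts scaled to the library total), 1 column for each of 6 libraries. Per the labels and the supplemental methods, reads of ribosome-depleted total RNA were aligned with STAR and assigned to genes with Partek E/M (versions: not given in the sources used here). Build hg19 is named, whereas the symbols are of mouse genes. Every value holds an offset of 0.0001 CPM. Of 20430 lines, 21 carry a date in place of a symbol and were left out. Values were whole numbers of reads (within 0.05 read) in 65.1% to 66.7% of cases, so no test on counts was made. Whether counting used strand is not stated, so overlapping and antisense genes may share reads. The deposited z-scores were not used.

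Genes averaging 1 CPM or more were tested with limma 3.58.1 in R 4.3.3 on log2(CPM + 1), with a mean-variance trend, genotype as the only term and Benjamini-Hochberg adjustment over 12837 genes (4 residual and 10.9 prior degrees of freedom). Confidence intervals are at the 95% level, and the limit of 3 reads covers counting error only. Levels per kilobase used merged exons of protein-coding transcripts of GENCODE M21, which also gave chromosomes (98.5% of tested genes). The procedure was tested on simulated data. Members and lists were chosen with earlier results of these data known. Named were all members, the alpha partners, at most 5 called genes of each list, genes that did not pass, and the 5 genes most like *Ddr2*; 1 gene that this rule names is not reported here.

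Alternatives were other pseudocounts and filters, other scalings, limma without the trend or without moderation, a replicate block, leaving out each library, the ratio of mean CPM, and removal of chromosome medians.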

Additional observations from a re-analysis of the deposited data

How the results depend on the processing

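For *Itgb1*, *Itgb2*, *Itgb3*, *Itgb4* and *Itgb5*, direction and call held in all 79 alternative fits, and *Ddr1* stayed uncalled in each of its fits. The log2 fold change of *Ddr2* was -6.59 with a pseudocount of 0.1 CPM and -4.34 with one of 3 CPM, as the pseudocount weighs on values under 1 CPM. With no filter, 13 collagen ligands and 7 mesenchymal markers were called, since more genes were tested, and with a filter at 5 CPM, 3 collagen ligands and 1 lung epithelial marker, since fewer were. Over all genes, 5208 of 20409 were higher and 5189 lower with no filter, and 3687 of 10527 were higher and 4028 lower at 5 CPM. Quantile normalization called 2 lymphatic markers, and the cause was not tested. With chromosome medians removed, *Itgb1* was at -0.39, *Itgb5* at -0.65 and *Itgb2* at 0.75. Leaving out 1 library gave 4051 to 4369 genes higher and 4238 to 4596 lower, and 0.03 to 0.21 for *Ddr1* on the log2 scale.

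Deviations from the group means correlated at 0.09, 0.09 and -0.15 for replicates 1, 2 and 3 of the 2 genotypes. For libraries with unlike replicate numbers they correlated at -0.30 to 0.23. With 3 libraries in a group the deviations sum to 0, so these values cannot settle whether replicate numbers pair the libraries. With the replicate block 4367 genes were higher and 4602 lower. Depth limited *Itgb6* and *Itgb7*, with at most 33 estimated reads.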
